A study of Mus musculus with 13 samples.

Results

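Respiratory complex I (NADH:ubiquinone oxidoreductase) was examined through the 57 array probes whose gene name on the array starts with Nduf, with pseudogene names left out. Of the 55681 probes and 34797 gene names on each array, these were 42 genes: 52 probes for 38 subunit genes and 5 probes for 4 assembly factor genes (Ndufaf). The rule uses the name alone, though the group was picked for description with earlier results of these data known. The tissue was gastrocnemius, a calf muscle, of adult male C57BL/6J mice. There were 6 wild type mice and 7 littermates carrying a UCP1 transgene that the sample titles place in skeletal muscle, with 1 array per mouse. UCP1 is the mitochondrial uncoupling protein of brown fat, and the promoter that drives the transgene here is not given in the sources used here. Both groups ate the same purified low fat diet for 12 weeks, and the design text gives an age of 12 weeks for the mice. The comparison asked how muscle RNA differs between mice with and without the transgene. Each mouse was labelled with Cy5 and set against a common Cy3 pool of the samples, so a value is the log2 ratio of mouse over pool, and a difference is UCP1 transgenic minus wild type.

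Complex I takes electrons from NADH, passes them through a flavin and a chain of iron-sulphur clusters to ubiquinone, and pumps protons across the inner mitochondrial membrane. The enzyme is L-shaped, with a matrix arm that carries the redox centres and a membrane arm that carries the proton pumps. Its core subunits do the catalysis, those of the membrane arm being encoded by mitochondrial DNA, and the accessory subunits around them serve stability and assembly. Assembly factors join during construction and leave before the enzyme is complete. Skeletal muscle is rich in the complex, and uncoupling lets protons return to the matrix without making ATP.

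All 42 genes were measured. Of the 57 probes, 54 were well above background on all 13 arrays, and the other 3 (1 for Ndufa3 and 2 for Ndufb5) were left out by the filter described under the processing. The brightest kept probe stands for a gene unless a probe is named. A gene was called lower or higher where the adjusted p of limma (Benjamini-Hochberg over all 22716 kept probes) was under 0.05. By that rule 16% of all 17257 genes tested were lower in the transgenic mice and 16.7% were higher, so a call by itself was common in this comparison. The arrays had 20643 to 24036 probes above background and no saturated spot. They lay on 4 slides, taken from the array barcodes since the sample labels name no slide, and each slide held both genotypes.

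The check of the transgene set 1 array apart. The log2 ratio of Ucp1 was -0.20 to 0.85 in the 7 transgenic mice and -4.23 to -2.82 in 5 of the 6 wild type mice, but 0.45 in the array labelled wild type 4, inside the transgenic range. The difference was 3.23 ± 0.50 (SE; 9.41-fold, limma adjusted p = 5.01e-05) with that array and 3.91 ± 0.20 (limma adjusted p = 1.78e-11) without it. Markers of brown adipocytes were uneven on the same array. Zic1 was at 0.17 there, just above the other wild type arrays (-0.09 to 0.16), while Cidea and Dio2 stood further apart. Cidea, a lipid droplet protein of brown adipocytes, was at 1.80 there, above the transgenic range of -0.90 to 0.13, while the other wild type arrays ran from -2.19 to -0.84. Dio2, which activates thyroid hormone, was at 0.20 against -0.50 to -0.18 in the other wild type arrays, inside the transgenic range of -0.19 to 0.22. Adrb3, an adrenergic receptor of fat listed here with white adipocyte markers, was at 0.52 against -0.68 to -0.20. Its transgenic range was -0.09 to 0.28. On that array Myh7, the slow fibre myosin (-0.88), and Cox6a2, a muscle form of a cytochrome c oxidase subunit (-0.56), lay within the range of the other wild type mice and below every transgenic array. Leaving that array out moved the count of lower subunit genes from 21 to 20 (Ndufb9 no longer passed) and left their median difference at -0.24.

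The sequences of 4 promoters are shown because these subunits were among the 12 most lowered and carry a match to a motif searched for. They are the 250 bases before the RefSeq start (GRCm38.p6), with the match in capitals: the motif of NRF1 in Ndufs6, Ndufs5 and Ndufa8, and CCGGAAG, known from ETS factors such as GABP, in Ndufb6. NRF1 and GABP are transcription factors of nuclear genes for respiration. Both strands were searched, so a match may read as the reverse complement, and in these 4 windows no match overlapped another.
Ndufs6, chr13:73328483-73328732, minus strand: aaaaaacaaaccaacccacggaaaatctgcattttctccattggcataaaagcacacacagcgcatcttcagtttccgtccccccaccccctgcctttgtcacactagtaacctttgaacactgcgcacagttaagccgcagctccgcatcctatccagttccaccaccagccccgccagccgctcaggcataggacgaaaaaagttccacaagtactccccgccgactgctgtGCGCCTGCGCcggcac
Ndufs5, chr4:123718187-123718436, minus strand: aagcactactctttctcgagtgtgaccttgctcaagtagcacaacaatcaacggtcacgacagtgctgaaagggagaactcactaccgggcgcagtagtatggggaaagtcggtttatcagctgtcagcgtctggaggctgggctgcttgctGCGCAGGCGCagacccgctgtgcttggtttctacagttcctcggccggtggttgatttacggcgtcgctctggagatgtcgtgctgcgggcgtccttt
Ndufa8, chr2:36049339-36049588, minus strand: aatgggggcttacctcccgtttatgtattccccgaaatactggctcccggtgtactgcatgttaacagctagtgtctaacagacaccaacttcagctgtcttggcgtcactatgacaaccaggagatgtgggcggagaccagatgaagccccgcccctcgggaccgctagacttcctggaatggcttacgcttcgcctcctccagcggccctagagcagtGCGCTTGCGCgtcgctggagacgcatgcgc
Ndufb6, chr4:40279422-40279671, minus strand: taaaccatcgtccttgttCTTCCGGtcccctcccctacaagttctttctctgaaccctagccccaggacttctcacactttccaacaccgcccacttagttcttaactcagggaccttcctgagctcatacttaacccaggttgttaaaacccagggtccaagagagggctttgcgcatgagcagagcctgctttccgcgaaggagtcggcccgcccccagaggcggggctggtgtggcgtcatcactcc
Of the 42 members, 37 had a promoter in the RefSeq table. The NRF1 motif was found in 18.9% of them (7 genes) and in 3.74% of all 32841 promoters of the same length. Among the 19 lower subunits with a promoter entry, 3 held it. The ETS motif stood in 10.8% of members and 6.91% of all promoters. The ERR motif TCAAGGTCA and the YY1 motif AAGATGGCG matched no member in this window, against 0.387% and 0.603% of all promoters. With the first 50 bases after the start added, AAGATGGCG was found in 13.5% of members and 1.40% of all promoters. In that longer window the NRF1 motif was in 21.6% and 4.60%, and the ETS motif in 13.5% and 8.86%. The ERR motif again matched no member, against 0.423% of all promoters. These matches are descriptions of letters and say nothing on binding. Members were counted by gene and the background by promoter, so a gene with several promoter entries, such as Ndufa5, had more chances to match.

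The subunits as a group were lower in transgenic muscle on the loess scale, the Agilent log ratio, the Cy5 channel alone and the authors' deposited value table, and not when arrays were centred on their median without loess. By probe, 26 of the 54 kept Nduf probes were lower and 2 were higher, against 15.8% and 16% of all kept probes. On the loess scale 21 of 38 subunit genes were lower and none was higher, against 16% and 16.7% of all genes. The median difference of the 38 was -0.24, and that of all genes was -0.0011. Of the 38 values, 35 were below 0, and the range ran from -0.56 to 0.13. In every one of the 4 slides 27 of the 38 subunit genes were lower, among them the 21 called. Those 21 were called on these same arrays, so their agreement across slides is not a separate test. Slide 3 held 1 wild type array, wild type 4. In 10 subunit genes every transgenic array was below every wild type array, and in none were all above, while 7.28% and 7.48% of all genes were separated in these directions. The median over the 38 subunits by array was 0.04 to 0.21 in the wild type mice (median 0.11) and -0.22 to -0.03 in the transgenic mice (median -0.12), so the groups did not overlap.

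**Figure D1:**
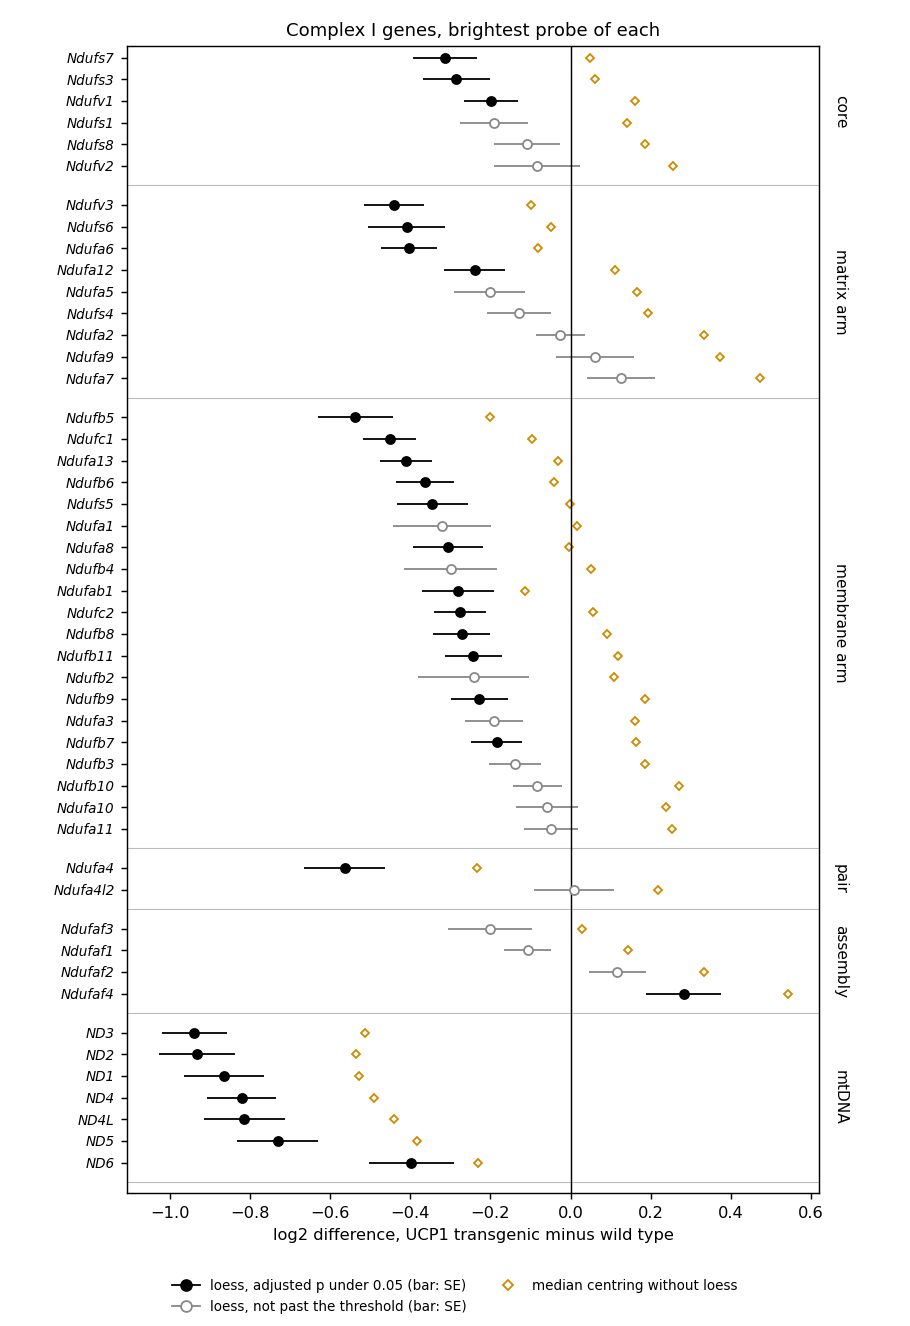
Log2 difference (UCP1 transgenic minus wild type, x axis) of the Nduf genes reported and the 7 complex I genes of mitochondrial DNA (mtDNA), grouped by role, "pair" being Ndufa4 and Ndufa4l2. Circles are the loess values with their SE, filled where limma's adjusted p was under 0.05, and diamonds are the values after median centring without loess, which lie to the right of the circles and mostly above 0 for the Nduf subunits.

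The choice of scaling changed this result more than leaving out any 1 array did, which gave 19 to 23 lower subunit genes. Under median centring without loess all genes had a median of 0.14 and the subunits one of 0.11, which is -0.03 relative to all genes. No subunit gene passed the threshold in either direction there, while 1.55% of all genes were lower and 6.04% higher. On that scale the subunit median by array ran from -0.63 to 0.18 in wild type and from -0.93 to 0.30 in transgenic mice, overlapping throughout. The members are abundant transcripts: 35 of the 38 subunit genes lay among the brightest 10% of all genes, whose own median difference was -0.03 with loess and 0.29 with median centring. In that class 62.7% of genes were called and 29.2% were called lower. The subunit medians, -0.24 with loess and 0.11 with median centring, were below those of that class on both scales. That gap was not tested. In the deposited values of the authors 9 subunit genes were lower, none was higher and the median was -0.13, against 16.5% of genes lower, 15.3% higher and a median of -0.03 over all. The Agilent log ratio gave 22 lower genes with a median of -0.18, and the Cy5 channel alone gave 20 with a median of -0.25, with 17.9% and 14.1% of all genes lower and 19.6% and 16.1% higher. The part of the scaling in the shift of the subunits was not tested.

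**Figure D2:**
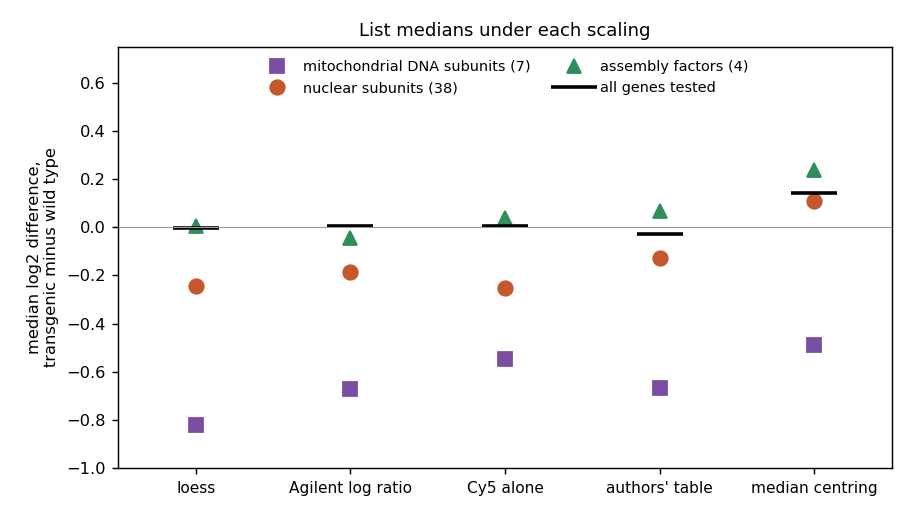
Median log2 difference (y axis) of the 38 nuclear subunits, the 4 assembly factors, the 7 subunits of mitochondrial DNA and all genes tested (black bars), under 5 ways of scaling the arrays (x axis). The nuclear subunits lie below all genes by 0.24 with loess and by 0.03 with median centring, and the mitochondrial DNA subunits lie lowest under each. Not drawn is the median of the brightest 10% of genes, which hold 35 of the 38 nuclear subunits. It was -0.03 with loess and 0.29 with median centring.

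Of the 7 core subunits encoded in the nucleus, which hold the redox centres, 4 were lower on the loess scale and none was higher, and the median of the 7 was -0.20 (0.14 with median centring, where all genes were also at 0.14). Ndufs7 carries the last iron-sulphur cluster before ubiquinone. Its ratio was 0.19 to 0.47 in wild type mice (median 0.27) and -0.32 to 0.25 in transgenic mice (median -0.01), a difference of -0.31 ± 0.08 (SE; limma adjusted p = 0.00504) with overlapping groups. Ndufs3, a scaffold of the matrix arm, had values of 0.04 to 0.49 (median 0.19) in wild type mice. In transgenic mice they were -0.32 to 0.13 (median -0.11). The highest transgenic arrays lay inside the wild type range, and the difference was -0.29 ± 0.08 (limma adjusted p = 0.0122). Under median centring Ndufs7 was at 0.05 and Ndufs3 at 0.06, above 0 but below the 0.14 of all genes. They did not pass there (limma adjusted p = 0.920 and 0.890). Neither passed in the authors' deposited value table, at -0.18 and -0.14 (limma adjusted p = 0.165 and 0.303).

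Ndufv1 binds NADH and the flavin and so is the entry point for electrons. It had 0.01 to 0.21 in wild type mice (median 0.09, 5 arrays, as 1 spot was marked as an outlier) and -0.27 to -0.01 in transgenic mice (median -0.05). The groups did not overlap, but the difference was small, -0.20 ± 0.07 (limma adjusted p = 0.0301). That call was lost without wild type 2 (limma adjusted p = 0.0837), wild type 6 (0.0513), transgenic 4 (0.0581), transgenic 5 (0.0504) or transgenic 7 (0.0587). Under median centring the value was 0.16, where all genes were at 0.14. In the authors' deposited value table it was -0.04 and did not pass (limma adjusted p = 0.722).

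Ndufs1, Ndufs8 and Ndufv2 did not pass. Ndufs1, the largest iron-sulphur protein of the enzyme, had -0.16 to 0.29 (median 0.03) in wild type and -0.37 to 0.16 (median -0.20) in transgenic mice. Its difference was -0.19 ± 0.08 (limma adjusted p = 0.0945). When arrays were left out in turn, it passed only without transgenic 7, where it was -0.24 (limma adjusted p = 0.0216). With all arrays it passed in the Agilent log ratio (-0.18, limma adjusted p = 0.0326). Ndufs8, another iron-sulphur subunit, had -0.22 to 0.21 (median 0.08) and -0.34 to 0.06 (median 0.03), with a difference of -0.11 ± 0.08. Ndufv2, the partner of Ndufv1 in the NADH module, had -0.13 to 0.46 (median 0.04) and -0.36 to 0.37 (median 0.03), with a difference of -0.08 ± 0.11. The groups overlapped in all 3, and with median centring the values were 0.14, 0.18 and 0.26.

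**Figure D3:**
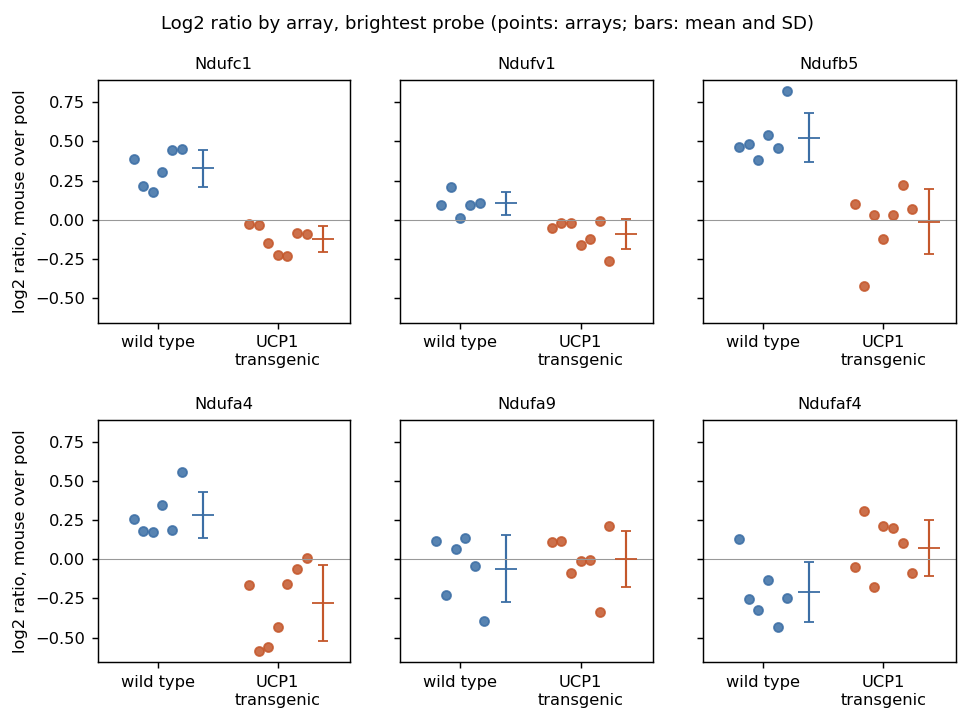
Log2 ratio of mouse over pool (y axis) on each array for 6 members, 6 wild type (5 for Ndufv1) and 7 transgenic arrays, with the mean and SD beside the points. Ndufc1, Ndufv1, Ndufb5 and Ndufa4 do not overlap between groups, Ndufa9 overlaps fully, and Ndufaf4 is higher in transgenic mice with overlap. After median centring the difference of Ndufv1 was 0.16, where all genes were at 0.14.

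Accessory subunits of the matrix arm were lower in 4 of 9 genes (Ndufv3, Ndufs6, Ndufa6 and Ndufa12), with a median of -0.20 (0.16 with median centring). Ndufa6 is a small matrix arm protein that holds the mitochondrial acyl carrier protein. It had 0.13 to 0.32 (median 0.20) in wild type and -0.41 to -0.02 (median -0.16) in transgenic mice, without overlap, and a difference of -0.40 ± 0.07 (SE; limma adjusted p = 1.74e-04). Ndufs6, which carries a zinc ion and joins late in assembly, had 0.17 to 0.68 (median 0.42) and -0.33 to 0.25 (median 0.01). Here the highest transgenic arrays reached the lowest wild type ones, and the difference was -0.41 ± 0.10 (limma adjusted p = 0.00236). Both kept their sign with median centring, at -0.08 and -0.05, and did not pass there. Ndufs6 also missed the threshold in the authors' deposited value table (-0.26, limma adjusted p = 0.0591). The members not past the threshold included Ndufa7 at 0.13 and Ndufa9 at 0.06, the only subunit genes above 0 on the loess scale apart from Ndufa4l2.

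Ndufv3, an accessory subunit at the NADH-binding tip, was the member with 1 probe called lower and another called higher. The gene is known to give a short and a long protein that differ by inclusion of an exon. The first 30 bases of its 3 probes are printed to show that they read different stretches of the transcript, and all lie on the plus strand of mm9, the build named in the file headers. Capitals are not used, since no motif is meant.
Brightest probe, chr17:31668209-31668268: ggtagaccccgatgttggttcccatgaatc
Probe with no RefSeq transcript, chr17:31663758-31663817: aagaaaagctattgccactccctccgtcct
Probe of 1 RefSeq transcript, chr17:31665148-31665207: gtgccagaaggaggctcccaggtccaggag
The array's annotation lists both RefSeq transcripts of the gene for the brightest probe, only 1 of them for the last, and an Ensembl transcript and a cDNA clone but no RefSeq transcript for the other. Which exon or intron each lies in was not analysed here, as no annotation of that build was used.

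At the brightest probe of Ndufv3 wild type mice had -0.09 to 0.33 (median 0.03) and transgenic mice -0.60 to -0.28 (median -0.33). All transgenic arrays were lower, with a difference of -0.44 ± 0.08 (SE; limma adjusted p = 1.41e-04). The probe with no RefSeq transcript did the reverse. It had -0.60 to -0.22 (median -0.43) in wild type and 0.20 to 0.86 (median 0.51) in transgenic mice. All transgenic arrays were higher, with a difference of 0.93 ± 0.09, 1.90-fold (limma adjusted p = 3.23e-07), on a comparison in which 16% of all probes were higher. This was the largest rise among the member probes, and it held its direction and its call under each of the other scalings (1.00 with median centring, 0.99 in the authors' deposited value table, 0.99 in Cy5 alone). At the probe of 1 RefSeq transcript the values were -0.39 to 0.02 (median -0.22) and -0.30 to 0.14 (median -0.07), overlapping, with a difference of 0.13 ± 0.09 that did not pass (limma adjusted p = 0.271).

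The disagreement was tested within each array, as the other probe minus the brightest probe of the same gene, over all 5459 such pairs in 4035 genes. By this test 7.9% of pairs changed with genotype. For the Ndufv3 probe with no RefSeq transcript the change was 1.37 ± 0.12 (SE; limma adjusted p = 5.76e-08), and for the probe of 1 RefSeq transcript it was 0.57 ± 0.10 (limma adjusted p = 0.00103). The first passed under each scaling, with median centring too (limma adjusted p = 3.28e-04), and was 2.11 with the Agilent log ratio. The second did not pass with median centring (0.31) or in the authors' deposited value table (0.39). Of the 12 pairs of member probes these 2 passed, and none of the 10 others did. A mean over the 3 probes would have given Ndufv3 as 0.21 and higher, against -0.44 for its brightest probe.

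**Figure D4:**
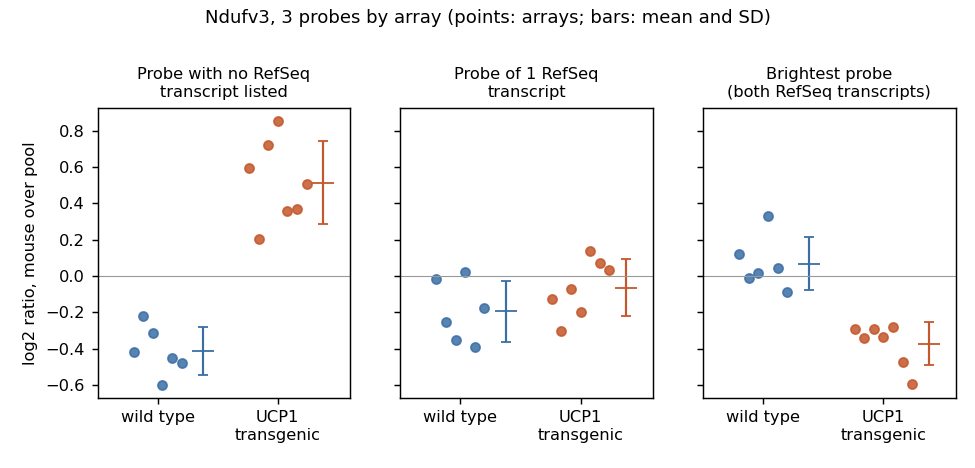
Log2 ratio of mouse over pool (y axis) on each array for the 3 Ndufv3 probes, with mean and SD beside the points of 6 wild type and 7 transgenic arrays. The probe with no RefSeq transcript is higher in all transgenic mice, the brightest probe is lower in all of them on the loess scale, and the probe between them overlaps.

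Accessory subunits of the membrane arm were lower in 12 of 20 genes, with a median of -0.27 (0.07 with median centring, or -0.07 relative to all genes there). Ndufb5, a single-pass membrane subunit, had 0.38 to 0.82 (median 0.47) in wild type and -0.42 to 0.22 (median 0.03) in transgenic mice. There was no overlap, and the difference was -0.54 ± 0.09 (SE; limma adjusted p = 1.64e-04). Its other kept probe gave -0.31 ± 0.08 with overlap (limma adjusted p = 0.00456). Ndufc1, a small subunit of the membrane arm, had 0.18 to 0.45 (median 0.34) and -0.24 to -0.03 (median -0.09). Again the groups were apart, at -0.45 ± 0.07 (limma adjusted p = 2.88e-05). Ndufa13, also known as GRIM-19 for a role outside the complex, had 0.04 to 0.21 (median 0.07) and -0.50 to -0.16 (median -0.30). All its transgenic arrays were lower, with a difference of -0.41 ± 0.06 (limma adjusted p = 5.29e-05), which fell to -0.14 and did not pass in the Cy5 channel alone (limma adjusted p = 0.202). These 3 kept their sign with median centring (-0.20, -0.10 and -0.03) and did not pass.

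Ndufb6, another membrane subunit, had 0.08 to 0.46 (median 0.27) in wild type and -0.22 to 0.07 (median -0.09) in transgenic mice. The groups did not overlap on it or on its second probe, and the probes gave -0.36 ± 0.07 and -0.37 ± 0.08 (limma adjusted p = 5.57e-04 and 0.00146). Ndufs5 and Ndufa8 are proteins of the intermembrane space face, held by disulphide bonds. Ndufs5 had 0.06 to 0.50 (median 0.43) and -0.25 to 0.31 (median 0.04), overlapping, with a difference of -0.35 ± 0.09 (limma adjusted p = 0.00528); its probe also lists a transcript of the pseudogene Ndufs5-ps, so signal from both could mix. Ndufa8 had 0.08 to 0.55 (median 0.21) and -0.21 to 0.16 (median -0.10), overlapping, with a difference of -0.31 ± 0.09 (limma adjusted p = 0.0105). With median centring Ndufb6 was at -0.04 and Ndufs5 and Ndufa8 were at -0.0023 and -0.0048. In the authors' deposited value table Ndufs5 (-0.22) and Ndufa8 (-0.21) did not pass (limma adjusted p = 0.0937 and 0.0983).

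In 2 membrane arm genes the probes differed in their call. Ndufb4 had a pair of probes that share 37 bases, and they are printed because they gave different values for nearly the same stretch (first 30 bases of each, no capitals).
Brightest probe, chr16:37647711-37647770: ggacagaaaatttaacatctcctactaagt
Other probe, chr16:37647688-37647747: actaagttcggcaaggatgactattcttgc
At the brightest probe the wild type arrays spread from -0.43 to 0.45 (median -0.10) and the transgenic arrays from -0.62 to -0.11 (median -0.33). They overlapped, and the difference of -0.30 ± 0.12 (SE) did not pass (limma adjusted p = 0.0561). It passed without wild type 1, wild type 6, transgenic 1 or transgenic 2 (limma adjusted p = 0.0130 to 0.0496). With all arrays it passed in the Agilent log ratio (-0.40, limma adjusted p = 0.00145) and in Cy5 alone (-0.28, limma adjusted p = 0.0429). In the authors' deposited value table it did not (-0.13, limma adjusted p = 0.455). Under median centring it was 0.05, where all genes were at 0.14. At the other probe wild type arrays held to 0.16 to 0.37 (median 0.20) and transgenic arrays to -0.57 to -0.15 (median -0.37). All transgenic arrays were lower there, with a difference of -0.58 ± 0.07 (limma adjusted p = 4.08e-06). The difference between the probes did not pass (-0.28 ± 0.11, limma adjusted p = 0.146), so the loss of the call at the brightest probe is not shown to be a difference in response. The brightest probe also lists a predicted transcript that the other does not.

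Ndufb11, an X-linked membrane subunit, had 3 probes. The brightest gave 0.02 to 0.40 (median 0.16) in wild type and -0.19 to 0.12 (median -0.11) in transgenic mice, a difference of -0.24 ± 0.07 (SE; limma adjusted p = 0.0135). An overlapping probe gave -0.37 ± 0.10 (limma adjusted p = 0.00661), and a probe farther off gave 0.08 ± 0.07 (limma adjusted p = 0.420). The groups overlapped on all 3, neither of the other probes differed from the brightest beyond the threshold, and with median centring the values were 0.12, -0.02 and 0.23. The brightest did not pass in the authors' deposited value table (-0.13, limma adjusted p = 0.259).

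Of 18 further subunit genes, 6 were lower, with differences of -0.28 to -0.18 (Ndufab1, Ndufc2, Ndufb8, Ndufa12, Ndufb9 and Ndufb7). Among these, Ndufab1 is the mitochondrial acyl carrier protein, which also serves fatty acid synthesis. The other 12 did not pass and ran from -0.32 to 0.13. The SE of the subunit genes was 0.06 to 0.14, so a difference much under the smallest called value could not be resolved with these arrays. The 42 members lie on 16 chromosomes.

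Ndufa4 and Ndufa4l2 bear the family name but are set apart. Ndufa4 is now counted as a subunit of cytochrome c oxidase, and Ndufa4l2 is its paralogue, known from hypoxia. Ndufa4 had the largest difference of all members by brightest probe. It was 0.17 to 0.56 (median 0.23) in wild type and -0.59 to 0.01 (median -0.16) in transgenic mice, without overlap, and the difference was -0.56 ± 0.10 (SE), 1.48-fold lower (limma adjusted p = 2.17e-04). It was -0.23 with median centring and did not pass there. Ndufa4l2 had -0.34 to 0.26 (median 0.02) and -0.36 to 0.30 (median 0.04), with full overlap and a difference of 0.01 ± 0.10. Without Ndufa4 and Ndufa4l2, 20 of 36 subunit genes were lower on the loess scale and the median was still -0.24 (0.11 with median centring).

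Of the 4 assembly factors with an Ndufaf name, none was lower and 1 was higher on the loess scale, against 16% and 16.7% of all genes, and their median was 0.0048 (0.24 with median centring, 0.10 above all genes). Ndufaf4, which acts in early assembly of the matrix arm, had -0.43 to 0.13 (median -0.25) in wild type and -0.18 to 0.31 (median 0.11) in transgenic mice, overlapping. It was higher by 0.28 ± 0.09 (SE; limma adjusted p = 0.0258), a call lost without wild type 3, wild type 5, transgenic 2, transgenic 4 or transgenic 5 (limma adjusted p = 0.0533 to 0.0715). Its second probe gave 0.13 ± 0.08 and did not pass (limma adjusted p = 0.231), with -0.35 to -0.05 (median -0.32) in wild type and -0.31 to 0.13 (median -0.20) in transgenic mice. In the Agilent log ratio that probe was higher by 0.18 and passed (limma adjusted p = 0.0221). In Cy5 alone and the authors' deposited value table it did not (limma adjusted p = 0.155 and 0.0942). Under median centring the 2 probes were at 0.54 and 0.38, neither past the threshold.

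Ndufaf1, a chaperone of the membrane arm, had -0.01 to 0.23 (median 0.10) in wild type and -0.08 to 0.09 (median -0.01) in transgenic mice. Ndufaf2, a paralogue of Ndufa12 that holds its place during assembly, had -0.39 to 0.01 (median -0.12) and -0.13 to 0.04 (median -0.04). Ndufaf3, which works with Ndufaf4, had 0.04 to 0.49 (median 0.14) and -0.40 to 0.36 (median -0.06). The groups overlapped in all 3. Their differences were -0.11 ± 0.06, 0.12 ± 0.07 and -0.20 ± 0.10, none past the threshold, although Ndufaf3 passed as lower without transgenic 6 (-0.26, limma adjusted p = 0.0482). Under median centring Ndufaf1 was at 0.14 and Ndufaf3 at 0.03, where all genes were at 0.14. Whether assembly factors differ from subunits was not tested, since members were chosen with results of these data known.

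Other factors that assemble complex I carry other names on the array, and 15 of 16 listed were measured. Of these, 3 were higher: Nubpl, which delivers iron-sulphur clusters to the complex (0.40 ± 0.07, all transgenic arrays above all wild type arrays), Tmem70 (0.31 ± 0.08) and Dmac2 (0.25 ± 0.06, again without overlap). Another 2 were lower, Ecsit (-0.20 ± 0.06) and Ndufaf5, a hydroxylase acting on Ndufs7 and listed under an older name (-0.31 ± 0.08). The other 10 did not pass, and the median was 0.04. Over all genes 16.7% were higher and 16% lower, so these counts are near the background. None of the 15 passed with median centring, where Ecsit was at 0.12, the median of the 15 was 0.27 and that of all genes 0.14.

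The 7 subunits that mitochondrial DNA encodes, which form the proton pumps and their base, were all lower, against 16% of all genes, and stayed below 0 under each scaling. Their median was -0.82, larger in size than that of the nuclear subunits at -0.24; the difference between these lists was not tested. ND1, beside the ubiquinone site, had 0.07 to 0.36 (median 0.25) in wild type and -0.94 to -0.30 (median -0.66) in transgenic mice, with a difference of -0.87 ± 0.10 (SE; limma adjusted p = 1.48e-06). ND3, whose loop lies where the arms meet, had 0.05 to 0.43 (median 0.16) and -0.85 to -0.59 (median -0.71) over 12 arrays, 1 spot being marked as an outlier, with a difference of -0.94 ± 0.08 (limma adjusted p = 5.18e-08). Both were separated fully between genotypes, as were ND2 (-0.93), ND4 (-0.82, 12 arrays), ND4L (-0.81) and ND5 (-0.73). ND6, the lone complex I gene on the other strand of mitochondrial DNA, had 0.11 to 0.46 (median 0.37) and -0.51 to 0.22 (median 0.01), overlapping, with a difference of -0.40 ± 0.11 (limma adjusted p = 0.00634). All 7 passed in the authors' deposited value table (median -0.67) and 6 in Cy5 alone, and with median centring none passed, at a median of -0.49, or -0.63 relative to all genes.

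The genes of the other respiratory complexes were counted in the same way, on the loess scale, where 16% of all genes were lower and 16.7% higher. For complex II 1 of 4 genes was lower (Sdhd, -0.22), and for complex III 2 of 9 (Uqcrh, -0.41, and Uqcr11, -0.34). For complex IV 4 of 14 were lower and 3 higher, and these included both forms of tissue-specific pairs: Cox7a1 fell by 0.62 and Cox7a2 rose by 0.23, and Cox8b fell by 0.61 and Cox8a rose by 0.29, all on the log2 scale. In the pair Cox6a2 and Cox6a1, the muscle form Cox6a2 was higher by 0.97 and Cox6a1, at 0.16, did not pass. The rise of Cox7a2 was smaller in the Agilent log ratio (0.07) and in Cy5 alone (0.16). For ATP synthase 7 of 15 were lower, Atp5l most (-0.52). In the authors' deposited value table the counts of lower genes were 0 for complex II, 1 for complex III, 3 for complex IV and 2 for ATP synthase. With median centring Cox6a2 alone among these passed, at 1.37, and the medians of the 4 complexes were 0.24, 0.14, 0.23 and 0.19.

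Among 10 regulators and markers of mitochondrial amount, 1 was lower (Vdac1, the outer membrane channel, -0.40) and 2 were higher: Gabpa, an ETS factor of respiratory genes (0.30), and Tfam, which packs mitochondrial DNA (0.18). These counts are near the 16% and 16.7% of all genes. Citrate synthase (Cs), a common measure of mitochondrial content, was at -8.2e-05 on 12 arrays, Ppargc1a at -0.04 and Nrf1 at -0.01, none past the threshold. With median centring no gene of this list passed, and Cs was at 0.41, Vdac1 at -0.03.

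Markers of fibre types and of other cells moved in the same samples. All 6 slow fibre markers were higher (median 0.92, Myh7 1.17; 1.22 with median centring), and 6 of 9 fast fibre markers were lower with 1 higher (median -0.61; -0.19 with median centring and -0.06 in Cy5 alone). Adipocyte markers were higher in 8 of 11 genes (median 0.33; Adipoq 0.81), their mean by array running from -0.50 to 0.03 in wild type and from -0.16 to 0.23 in transgenic mice. For Schwann cells 3 of 5 were higher, for brown adipocytes 1 of 3, for fibroblasts 2 of 6, for endothelium 1 of 7 was lower, for macrophages 1 of 6 was lower, and for smooth muscle none of 6 passed. The share of all genes was 16.7% higher and 16% lower. Without the array labelled wild type 4 the higher genes were 10 of 11 for adipocytes, 2 of 3 for brown adipocytes and 4 of 5 for Schwann cells. All 9 fast and 6 slow fibre markers were well measured, in both groups. In whole muscle, fewer fibres of a type and less RNA per fibre cannot be told apart, and the part of these markers in the complex I results was not tested.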

How the data were processed

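Muscle RNA of 13 mice was hybridised to Agilent 8x60K arrays with 2 colours. The deposited scanner files hold spot and background intensity for each channel and a log10 ratio, per the file headers, written by Agilent Feature Extraction 10.5.1.1, per the submitters' processing notes. The deposited value table was taken as log2 intensity of the authors, and its normalization, done together with samples of a larger series, is not given in the sources used here. No per-sample column was left unmapped.

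Mean signals were corrected by normexp (offset 50), log2 ratios of Cy5 over Cy3 were normalized by loess within each array, control and outlier spots were left out, and spots of a probe were averaged. A probe was kept (22716, 40.8%) if the Cy5 spot was flagged as well above background on 6 or more of the 13 arrays. Genotypes were compared with limma 3.58.1 in R 4.3.3, two-sided, with Benjamini-Hochberg adjustment over all kept probes, and checked on simulated data. The number of arrays limits the precision. Loess takes most genes of like brightness as unchanged, which bears on bright genes such as these.

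Values were printed for the core subunits, the 12 lower subunits of largest difference, Ndufa4 and Ndufa4l2, the assembly factors, and genes whose probes differed in call; 1 member is counted but not reported here. Members and lists were chosen with earlier results of these data known, and the test between probes of a gene was added after seeing the data. Alternatives were other scalings, filters, blocks and left-out arrays. Promoters came from RefSeq (GRCm38.p6); probe positions are on mm9, per the file headers.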

Additional observations from a re-analysis of the deposited data

Results flagged for a closer look

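In the groups of 6 or 7 arrays, 52 were checked for a single array far from the rest, and chance alone marks about 1 in 20 groups. There were 3 such arrays, 2 of them in member genes. For Ndufb5, wild type 6 had a log2 ratio of 0.82, with the nearest wild type array at 0.54. For Ndufs5, wild type 3 had 0.057, with the nearest at 0.35. For Ucp1, the array labelled wild type 4 had 0.45, with the nearest wild type array at -2.82.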

How the results depend on the processing

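Of the 24 member genes followed singly, all kept direction and call with no filter, with the filter on all 13 arrays, with outlier spots kept and with the brightest probes alone. Of the 24, 16 were called. With median centring without loess all 16 lost their call, and 10 of the 24 changed sign: Ndufv1 0.16, Ndufv2 0.26, Ndufs1 0.14, Ndufs3 0.060, Ndufs7 0.047, Ndufs8 0.18, Ndufaf1 0.14, Ndufaf3 0.029, Ndufb11 0.12 and Ndufb4 0.051. On that scale all genes had a median of 0.14 and the brightest 10% one of 0.29. A change of sign is therefore not by itself a rise relative to other genes. There 0 subunit genes were lower and 0 assembly factors higher, 0 Nduf probes were lower and 1 was higher, 386 of all kept probes were lower and 1281 higher, the median was 0.11 for subunits and 0.24 for assembly factors, and the smaller Ndufv3 probe difference was 0.31. In the deposited values of the authors 9 subunit genes and 13 Nduf probes were lower, the medians were -0.13 and 0.067, 7 of the 16 calls were lost (Ndufv1, Ndufs3, Ndufs7, Ndufs6, Ndufs5, Ndufa8 and Ndufb11), Ndufv2 was 0.051 and the smaller Ndufv3 probe difference was 0.39. In Cy5 alone Ndufv1, Ndufa13 and Ndufa8 lost their call and Ndufb4 gained one, and with offset 16 Ndufv1 lost its call. In the Agilent log ratio 0 of the 16 calls were lost, and Ndufs1 and Ndufb4 gained one. With slide as a fixed or a random block 0 calls were lost and 1 of the 24 genes gained one. With the mean over probes 1 subunit gene, Ndufv3 (0.21), was higher and 0 assembly factors were. Within slide 3 the medians were -0.31 and -0.065, and Ucp1, with wild type 4 as the lone wild type array, was at -0.13; within slide 1 Ndufaf4 was at -0.00042. The cause was not tested.

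With the replicate number as a block, 23 subunit genes and 1 assembly factor (Ndufaf3) were lower, the subunit median was -0.26, Ndufv1 lost its call and Ndufa4l2 was at -0.041. Same-numbered arrays did not pair: their correlations ran from -0.23 to 0.22, and none was best matched by its own number.

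Leaving out 1 array at a time gave 19 to 23 lower and 0 to 0 higher subunit genes, 0 to 1 lower and 0 to 1 higher assembly factors, 24 to 30 lower and 1 to 2 higher Nduf probes, 3298 to 3566 lower and 3234 to 3649 higher probes in all, medians of -0.27 to -0.23 and -0.02 to 0.03, Ucp1 at 2.97 to 3.91, the Ndufv3 probe differences at 1.28 to 1.43 and 0.52 to 0.62, and Ndufa4l2 at -0.061 to 0.070. The sign of Ndufa4l2 turned without wild type 1 or transgenic 3, 6 or 7.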
